A study of Mus musculus with 6 samples.

Results

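The 37 genes described here encode the ephrins, Slits and netrins and their receptors. They were chosen by gene family and not by a cut on their measured values, although earlier results of these data were known. Each of the 37 had a probe among the 22911 genes that could be named on the arrays. The set held 14 Eph receptors (9 of class A and 5 of class B), 8 ephrins (5 of class A and 3 of class B), 3 Slits, 4 Robo receptors, 4 Unc5 receptors and 4 netrins.

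Their expression was measured in lung of male mice on 1-colour Agilent arrays, with 2 arrays in each of 3 groups. Myofibroblasts, which contract and lay down matrix during repair, were sorted by flow cytometry as CD49e+Sca1-Lin- cells from lungs treated with bleomycin, a drug that injures the lung and is used to induce fibrosis. Untreated lungs gave the steady-state fibroblasts, sorted as CD140a+Lin- cells. Homogenates of untreated lung served as controls. The labels give 50000 cells a set and 5.8 ng of RNA labelled for each array. Strain, age, bleomycin dose and the time after bleomycin are not given in the sources used here. The sort gate and the treatment differed together between the sorted groups, so they cannot be told apart, and no homogenate of bleomycin-treated lung was analysed here. All arrays lay on 1 slide, the homogenates in a row of their own, so the row cannot be told apart from the homogenate group either. The labels do not say whether replicates were taken from separate animals, and p-values therefore measure only how far these samples spread, which may be technical.

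Eph receptors are receptor tyrosine kinases that bind ephrins on neighbouring cells. Class A ephrins are held in the membrane by a lipid anchor and class B ephrins span it, so contact can signal into both cells, commonly ending in repulsion and the sorting of cells into separate territories. Slits are large secreted proteins that signal through Robo receptors, and netrins are secreted, laminin-related proteins that signal through Dcc and neogenin, usually as attractants, or through Unc5 receptors, usually as repellents. First known from growing axons, these families also pattern vessels and shape the branching lung.

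Probes well above background made up between 65.5% and 73.4% of the spots on the 6 arrays, and no spot was saturated. The 2 fibroblast arrays lay further apart than those of the other groups. Of the genes well above background on both arrays of a group, 7.84% differed by more than 2-fold between the myofibroblast arrays, 23.5% between the fibroblast arrays and 2.83% between the homogenate arrays. The genes of the 3 sort markers differed between the sorted groups, with Itga5 (CD49e) higher and Ly6a (Sca-1) and Pdgfra (CD140a) lower in myofibroblasts. The myofibroblast markers Acta2, Tagln, Postn, Cthrc1 and Tnc (5 of 5) were higher in myofibroblasts than in fibroblasts. Of 6 general fibroblast markers, 2 were higher and 2 lower in myofibroblasts than in fibroblasts, and 5 were higher in fibroblasts than in homogenate. Pdgfra, whose product CD140a was used to sort the fibroblasts, counts among the 2 lower and among the 5. Of the 37 members, 28 were well above background on all 6 arrays and 5 on some of them. Epha8, Robo3, Unc5d and Ntn5 were not well above background on any array and are not described further.

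Promoter sequences are shown for Unc5b, Epha2, Epha4 and Slit3, the members whose difference between the sorted groups passed the test under every setting tried, and for Robo4, the member with the largest difference of all from homogenate. Each is the 250 bases before the RefSeq transcription start in mouse build GRCm38.p6, read 5′ to 3′ on the gene's strand. Capitals mark the letters of 5 motifs on either strand: the TATA box as TATAAA, the motif CCAAT, the GC box as GGGCGG, the AP-1 site as TGANTCA and the TEAD site as GGAATG. Matches may overlap. The Unc5b window lies at chr10:60831582-60831831 on the minus strand, Epha2 at chr4:141300971-141301220 on the plus strand, Epha4 at chr1:77515089-77515338 on the minus strand, Slit3 at chr11:35121206-35121455 on the plus strand and Robo4 at chr9:37401722-37401971 on the plus strand.
Unc5b: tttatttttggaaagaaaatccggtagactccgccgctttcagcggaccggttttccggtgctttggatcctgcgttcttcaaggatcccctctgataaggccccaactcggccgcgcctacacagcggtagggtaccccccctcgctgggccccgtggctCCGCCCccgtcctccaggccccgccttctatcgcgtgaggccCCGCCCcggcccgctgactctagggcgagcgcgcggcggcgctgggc
Epha2: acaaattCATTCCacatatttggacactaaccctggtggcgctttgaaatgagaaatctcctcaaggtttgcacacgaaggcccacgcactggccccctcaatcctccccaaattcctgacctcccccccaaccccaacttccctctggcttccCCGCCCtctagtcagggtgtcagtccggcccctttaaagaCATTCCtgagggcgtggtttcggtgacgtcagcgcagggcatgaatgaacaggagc
Epha4: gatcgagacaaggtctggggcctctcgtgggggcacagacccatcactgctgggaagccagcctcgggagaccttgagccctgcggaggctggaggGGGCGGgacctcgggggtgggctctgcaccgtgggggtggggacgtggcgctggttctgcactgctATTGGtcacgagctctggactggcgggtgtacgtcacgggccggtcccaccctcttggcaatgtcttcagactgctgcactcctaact
Slit3: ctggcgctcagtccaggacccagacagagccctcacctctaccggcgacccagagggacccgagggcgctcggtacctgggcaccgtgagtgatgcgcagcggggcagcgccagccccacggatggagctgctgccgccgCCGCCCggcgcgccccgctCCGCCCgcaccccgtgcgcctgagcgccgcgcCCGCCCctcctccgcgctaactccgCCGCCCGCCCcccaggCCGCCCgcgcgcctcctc
Robo4: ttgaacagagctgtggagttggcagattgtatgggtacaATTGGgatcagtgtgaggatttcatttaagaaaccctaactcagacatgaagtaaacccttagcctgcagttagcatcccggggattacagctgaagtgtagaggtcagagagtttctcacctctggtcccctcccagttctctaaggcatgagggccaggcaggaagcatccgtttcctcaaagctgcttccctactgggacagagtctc

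The GC box, the binding site of Sp-family factors, was found 6 times in the Slit3 window, 2 times in Unc5b, and 1 time each in Epha2 and Epha4, and no match was found in Robo4. Epha2 held 2 TEAD motifs, and Epha4 and Robo4 held 1 CCAAT box each. None of the 5 windows held a TATAAA or TGANTCA match. Of the 37 members, 33 had an entry in the promoter table, with 38 promoters in all. A GC box stood in 26 of these 38 (68.4%), against 32.7% of all 32851 promoters in the table. The other motifs were found in 13 member promoters for the CCAAT box (33.8% of all promoters hold it), in 5 for the TEAD site (12.6% of all), in 2 for TATAAA (12.4% of all) and in 0 for TGANTCA (6.75% of all). G and C made up 66.8% of the Unc5b window, 55.6% of Epha2, 66.0% of Epha4, 78.8% of Slit3 and 49.6% of Robo4. A match describes the letters only, and factor binding was not measured.

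Levels below are the array's signal divided by its 75th percentile, and log2 differences and their standard errors come from limma. Levels of different genes are not comparable with each other, since each probe has its own response. In bulk samples such as these, fewer cells of a type and less RNA per cell cannot be told apart.

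Myofibroblasts of bleomycin-treated lung were first set against steady-state fibroblasts, the comparison named in the series title. The netrin receptor gene Unc5b and the Eph receptor gene Epha2 were higher in myofibroblasts, and the Eph receptor gene Epha4, the Slit gene Slit3 and the netrin genes Ntn1 and Ntn4 were lower. In all, 6 of 30 tested members passed the test at an adjusted p under 0.05, 2 higher and 4 lower, against 17.2% of all 16008 genes tested (9.21% higher and 8.01% lower), so the members' share was near the background. The median log2 difference was -0.21 over the tested members and -0.06 over all genes. The 2 arrays of one group did not overlap those of the other in 19 of the 30 members, against 63.1% of all genes. No ephrin and no Robo receptor passed the test in this comparison, although Efna5, Efna1, Efnb1, Efnb2 and Robo1 each passed under at least 1 of the 17 alternatives, given below.

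**Figure D1:**
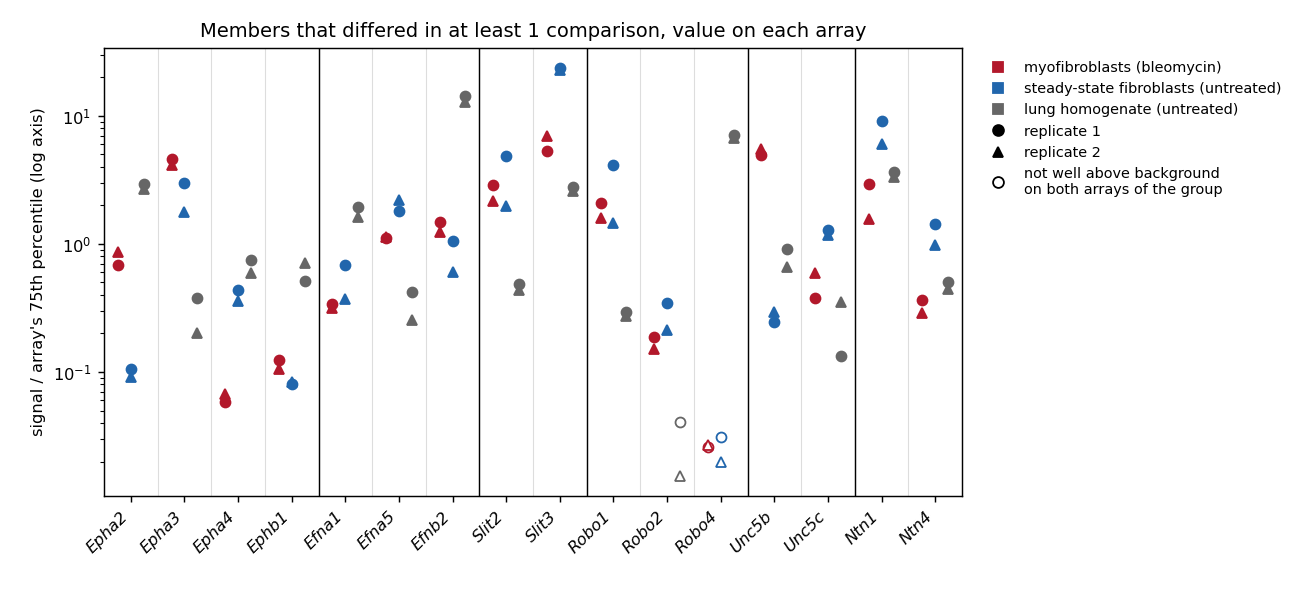
Signal relative to the array's 75th percentile (log axis) for the 16 members that differed in at least 1 comparison, on each of the 6 arrays; colours are groups, circles and triangles are replicates, and open symbols mark groups not well above background on both arrays. Unc5b lies at 4.93 and 5.5 in myofibroblasts, above every other array, and Robo4 is open in both sorted groups.

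Unc5b, a repulsive netrin receptor best known from endothelium, had levels of 4.93 and 5.5 in myofibroblasts, against 0.247 and 0.294 in fibroblasts. Both myofibroblast arrays lay above both fibroblast arrays and also above the homogenate arrays, at 0.911 and 0.656. Unc5b was 19.3-fold higher in myofibroblasts than in fibroblasts (log2 4.27 ± 0.28, SE, n = 2 per group, limma adjusted p = 0.00173), the largest difference between the sorted groups among the members. The other probe of Unc5b was well above background on 5 arrays, with 0.514 and 0.505 in myofibroblasts and 0.129 and 0.0239 in fibroblasts. Its log2 difference of 3.20 had the same direction and missed the threshold in the limma fit over probes (adjusted p = 0.0530).

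The other Unc5 receptors did not pass the test between the sorted groups. Unc5c, likewise a repulsive netrin receptor, had levels of 0.380 and 0.598 in myofibroblasts and 1.27 and 1.18 in fibroblasts. These arrays did not overlap, but the log2 difference of -1.36 ± 0.52 (SE) had a limma adjusted p of 0.122. Unc5a had levels of 0.223 and 0.309 in myofibroblasts and 0.182 and 0.136 in fibroblasts (log2 0.74 ± 0.30, limma adjusted p = 0.137).

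Of the 3 tested netrin ligands, 2 were lower in myofibroblasts. Ntn1, the founding netrin and a ligand of Unc5b, had levels of 2.95 and 1.56 in myofibroblasts, against 9.13 and 6.07 in fibroblasts, with no overlap between the groups. Ntn1 was 3.47-fold lower in myofibroblasts (log2 -1.80 ± 0.40, SE, n = 2 per group, limma adjusted p = 0.0372). Ntn4, a netrin of basement membranes that binds laminin, had levels of 0.367 and 0.288 in myofibroblasts and 1.42 and 0.986 in fibroblasts, again without overlap. Ntn4 was 3.64-fold lower in myofibroblasts (log2 -1.86 ± 0.30, SE, limma adjusted p = 0.0164). Both netrins had 1 probe only.

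Slit3, a secreted ligand of Robo receptors, had levels of 5.31 and 6.91 in myofibroblasts, against 23.5 and 22.9 in fibroblasts. The fibroblast arrays were nearly equal and far above the myofibroblast arrays. Slit3 was 3.83-fold lower in myofibroblasts (log2 -1.94 ± 0.26, SE, n = 2 per group, limma adjusted p = 0.00947). Slit2, its close relative, had levels of 2.89 and 2.18 in myofibroblasts and of 4.88 and 1.98 in fibroblasts. These arrays overlapped, and the 2 fibroblast values were 2.46-fold apart (log2 -0.31 ± 0.47, SE, limma adjusted p = 0.665). The 2 other Slit2 probes had log2 differences of 0.23 and 2.65, with adjusted p over probes of 0.738 and 0.163, so the sign differed between probes of the gene. Slit1 was not tested here, with no myofibroblast array and 1 fibroblast array above background.

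Among the Eph receptors, Epha2 and Epha4 changed in opposite directions. Epha2, a class A receptor widely expressed in epithelium, had levels of 0.682 and 0.868 in myofibroblasts, against 0.105 and 0.0918 in fibroblasts, with no overlap. Epha2 was 7.84-fold higher in myofibroblasts (log2 2.97 ± 0.26, SE, n = 2 per group, limma adjusted p = 0.00324). Epha4, which binds both classes of ephrin, had levels of 0.0582 and 0.0675 in myofibroblasts and 0.435 and 0.359 in fibroblasts. Both myofibroblast arrays lay below every other array. Epha4 was 6.31-fold lower in myofibroblasts (log2 -2.66 ± 0.27, SE, limma adjusted p = 0.00457). Under another background correction (normexp) the log2 differences shrank to 1.58 for Epha2 and -1.0 for Epha4. Both fold sizes thus depend on the background correction. Each of these receptors had 1 probe.

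Epha3, a receptor of class A ephrins, depended on the probe. The brightest probe had levels of 4.59 and 4.09 in myofibroblasts and 3.0 and 1.77 in fibroblasts, without overlap, and did not pass the test (log2 0.91 ± 0.42, SE, limma adjusted p = 0.183). The other Epha3 probe, at 0.530 and 0.729 in myofibroblasts and 0.156 and 0.216 in fibroblasts, had a log2 difference of 1.76 and passed (limma adjusted p over probes = 0.0365). Efna5, a class A ephrin that binds Epha3, gave the opposite sign on all 3 of its probes. Its brightest probe had levels of 1.10 and 1.13 in myofibroblasts and 1.81 and 2.20 in fibroblasts (log2 -0.84 ± 0.33, SE, limma adjusted p = 0.131). A second Efna5 probe gave -0.94 (adjusted p over probes = 0.10), and the third gave -1.61 and passed (adjusted p over probes = 0.0333).

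The members that were tested and did not pass had log2 differences between -1.36 for Unc5c and 1.60 for Efnb1. Efnb1, a transmembrane ephrin, had levels of 3.0 and 4.29 in myofibroblasts and 0.647 and 2.16 in fibroblasts (log2 1.60 ± 0.61, SE, limma adjusted p = 0.123). Its 2 fibroblast values were 3.34-fold apart, and without fibroblast replicate 2 the difference became 2.47 and passed (limma adjusted p = 0.0159). The only probe of Ephb3, a class B receptor, was bright and nearly flat, at 741 and 769 in myofibroblasts, 698 and 705 in fibroblasts and 652 and 643 in homogenate. Whether this probe reports the Ephb3 transcript was not tested. Of the 30 tested members, 24 did not pass, and 2 of these (Unc5c and Efnb1) differed by more than 2-fold between the group means.

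Markers of other cell types differed in part between the sorted groups. The levels of 8 endothelial markers summed to 0.239 and 0.364 in myofibroblasts, against 1.56 and 1.36 in fibroblasts, with Tek lower and Erg higher in myofibroblasts among the 4 tested. Most of the fibroblast sum came from Tek (1.37 and 1.07 in fibroblasts, 0.00831 and 0.112 in myofibroblasts). Of 7 leukocyte markers, 1 of 5 tested was higher in myofibroblasts (Tyrobp), and of 8 epithelial markers, 1 of 5 tested was lower (Sftpc). Of 8 smooth muscle and pericyte markers, 3 of 7 tested were higher (Myh11, Cnn1 and Cspg4) and 1 was lower (Kcnj8). Of 4 nerve and glia markers, 1 of 2 tested was higher (Tubb3), and neither tested mesothelial marker of 5 passed. The leukocyte sum was 164 and 156 in myofibroblasts, 175 and 152 in fibroblasts and 237 and 247 in homogenate. In the sorted groups most of it came from the Itgam probe (163 and 154 in myofibroblasts, 173 and 151 in fibroblasts, 136 and 143 in homogenate). Against homogenate, 6 of the 7 leukocyte markers were lower in fibroblasts and 5 in myofibroblasts, but Itgam passed in neither comparison. The smooth muscle and pericyte sum was 596 and 580 in myofibroblasts, 530 and 509 in fibroblasts and 476 and 512 in homogenate, most of it from the Mcam probe (551 and 535 in myofibroblasts, 481 and 487 in fibroblasts, 460 and 496 in homogenate). Whether the bright Itgam and Mcam probes report their transcripts was not tested. The nerve and glia sum was 8.41 and 10.6 in myofibroblasts, 1.0 and 1.02 in fibroblasts and 0.594 and 1.04 in homogenate, carried in myofibroblasts by Tubb3 (8.21 and 10.4). The mesothelial sum was 2.89 and 1.84 in myofibroblasts, 11.1 and 4.43 in fibroblasts and 5.99 and 6.03 in homogenate. In the sorted groups most of it came from Upk1b (2.45 and 1.66 in myofibroblasts, 10.2 and 4.07 in fibroblasts, 2.78 and 2.94 in homogenate). Wt1 was well above background on both fibroblast arrays, and Msln, Upk3b and Lrrn4 were on neither. The epithelial sum was 0.932 and 1.02 in myofibroblasts, 1.61 and 1.51 in fibroblasts and 175 and 179 in homogenate. The part of these markers in the members' differences was not tested.

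The calls of Unc5b, Epha2, Epha4 and Slit3 held under each of the 17 alternatives. Normexp background correction with an offset of 50 moved the log2 differences to 3.44 for Unc5b, 1.58 for Epha2 and -1.0 for Epha4. The Ntn1 call was lost without myofibroblast replicate 2 (limma adjusted p = 0.135), fibroblast replicate 1 (0.0941), homogenate replicate 1 (0.0976) or homogenate replicate 2 (0.0971), and also under median scaling (0.0508), with no filter on dim probes (0.0600), in a fit of the 4 arrays compared (0.0949) and with array weights (0.0851). The Ntn4 call was lost without myofibroblast replicate 1 (limma adjusted p = 0.0550) or 2 (0.0856), homogenate replicate 1 (0.0597) or 2 (0.0593), and in a fit of the 4 arrays compared (0.0578). Calls were also gained. Efna5 passed under normexp correction (log2 -0.74, limma adjusted p = 0.0482), on the authors' deposited table (-1.25, 0.0456) and with the mean over probes (-1.13, 0.0293), and Epha3 with the mean over probes (1.34, 0.0436). Without fibroblast replicate 2, Efna1 (log2 -1.07, limma adjusted p = 0.0341) and Robo1 (-1.16, 0.0378) passed, and without fibroblast replicate 1, Efnb2 did (1.18, 0.0454).

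**Figure D2:**
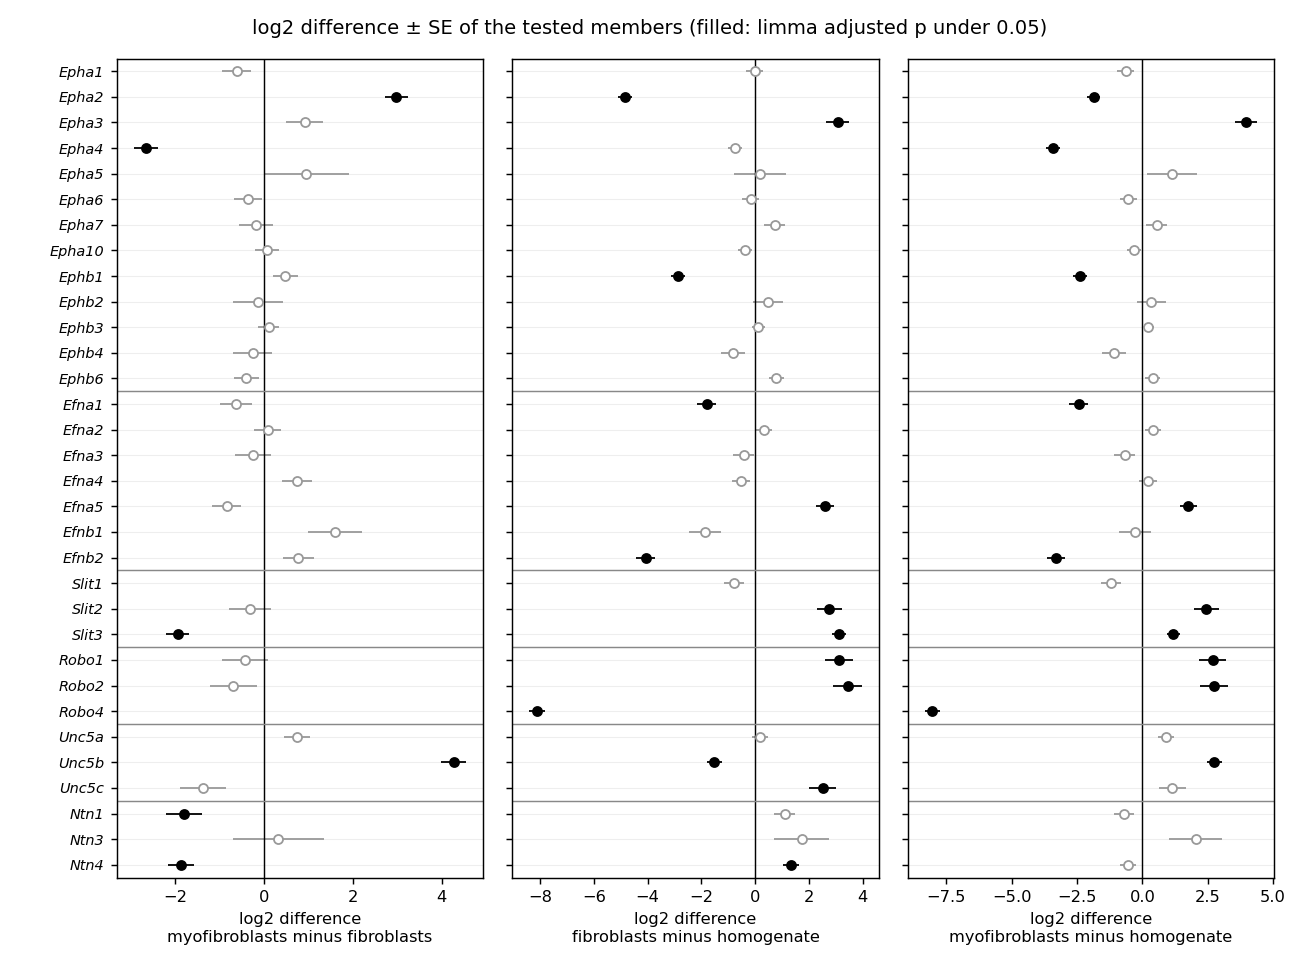
Log2 difference with its standard error for every tested member in the 3 comparisons, ordered by role; filled points passed the test (limma adjusted p under 0.05), and each panel has its own scale. In the left panel 6 of 30 members are filled, in the middle panel 14 of 32 and in the right panel 13 of 32. The points of Robo2 and Robo4 against homogenate, and of Slit1 in the right panel, rest on a group at background.

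Steady-state fibroblasts were next set against homogenate of untreated lung, which gives the levels of the members in sorted fibroblasts relative to the whole organ. Slit2, Slit3, Robo1, Robo2, Epha3, Efna5, Unc5c and Ntn4 were higher in fibroblasts. Robo4, Epha2, Efnb2, Ephb1, Efna1 and Unc5b were lower. These were 14 of 32 tested members, 8 higher and 6 lower, against 19.9% of all 17065 genes tested (8.09% higher and 11.8% lower). The median log2 difference was 0.14 over the tested members and 0.03 over all genes, and the arrays did not overlap in 24 of 32 members, against 62.8% of all genes.

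Both bright Slits and their 2 main receptors were higher in fibroblasts. Slit3 had levels of 23.5 and 22.9 in fibroblasts, against 2.76 and 2.59 in homogenate, and was 8.68-fold higher (log2 3.12 ± 0.26, SE, n = 2 per group, limma adjusted p = 0.00110). Slit2, at 4.88 and 1.98 in fibroblasts and 0.485 and 0.438 in homogenate, was 6.74-fold higher (log2 2.75 ± 0.47, SE, limma adjusted p = 0.0126). The second Slit2 probe passed in the same direction (log2 2.04, limma adjusted p over probes = 0.0318). In neither Slit did the fibroblast and homogenate arrays overlap.

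Robo1, a receptor of both Slits, had levels of 4.11 and 1.46 in fibroblasts, against 0.293 and 0.274 in homogenate. It was 8.66-fold higher in fibroblasts (log2 3.11 ± 0.52, SE, n = 2 per group, limma adjusted p = 0.0114). The 2 fibroblast arrays were 2.81-fold apart, yet both lay above both homogenate arrays. The other Robo1 probe was not well above background on any array. Robo2, the closest relative of Robo1, had levels of 0.347 and 0.212 in fibroblasts and was not well above background in homogenate, at 0.0406 and 0.0155. Robo2 was at least 6.95-fold higher in fibroblasts (limma adjusted p = 0.00891, measured log2 means -1.88 in fibroblasts and -5.32 in homogenate). Such a bound sets the mean of the brighter group against the lowest signal well above background, or the dim probe's own signal where that is higher, on each array of the dimmer group. Every bound given here, also those of partners, holds only for the background correction used.

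Robo4, the Robo of endothelium, was the only Robo receptor lower in fibroblasts than in homogenate. It was not well above background on any sorted array, at 0.0259 and 0.0267 in myofibroblasts and 0.0314 and 0.0199 in fibroblasts, against 7.03 and 6.76 in homogenate. Robo4 was at least 161-fold lower in fibroblasts than in homogenate (limma adjusted p = 0.000158, measured log2 means -5.32 in fibroblasts and 2.78 in homogenate). The summed level of the 8 endothelial markers was 1.56 and 1.36 in fibroblasts and 58.9 and 55.5 in homogenate, and 7 of the 8 were lower in fibroblasts. Of these, Kdr, Tie1, Erg and Emcn were not well above background on either fibroblast array and Cdh5 and Pecam1 were on 1, while Tek, which was not called, stood at 1.37 and 1.07 in fibroblasts and 4.77 and 4.07 in homogenate. The part of endothelial RNA in the Robo4 difference was not tested.

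Among the ephrins, Efnb2 and Efna1 were lower in fibroblasts. Efnb2, a transmembrane ephrin of arterial endothelium and ligand of Ephb4, had levels of 1.06 and 0.601 in fibroblasts, against 14.1 and 12.8 in homogenate. It was 16.8-fold lower in fibroblasts (log2 -4.07 ± 0.35, SE, n = 2 per group, limma adjusted p = 0.00121), without overlap. Efna1, a lipid-anchored ephrin and ligand of Epha2, had levels of 0.687 and 0.372 in fibroblasts and 1.93 and 1.62 in homogenate, and was 3.49-fold lower (log2 -1.80 ± 0.36, SE, limma adjusted p = 0.0212). Its groups did not overlap either. Ephb4, the venous partner of Efnb2, had levels of 5.07 and 2.66 in fibroblasts and 7.0 and 6.12 in homogenate and did not pass (log2 -0.83 ± 0.44, SE, limma adjusted p = 0.263). Efnb1 had levels of 0.647 and 2.16 in fibroblasts and 3.65 and 5.12 in homogenate, without overlap, and did not pass either (log2 -1.87 ± 0.61, SE, limma adjusted p = 0.0929). It passed with the replicate number as a block (limma adjusted p = 0.0401) and without fibroblast replicate 2 (log2 -2.74, 0.0127).

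Efna5 was the only ephrin that passed as higher in fibroblasts. Its levels were 1.81 and 2.20 in fibroblasts, against 0.424 and 0.255 in homogenate, a 6.06-fold difference (log2 2.60 ± 0.33, SE, n = 2 per group, limma adjusted p = 0.00446). All 3 Efna5 probes passed in this direction, at log2 2.60, 2.78 and 2.58. Its receptor gene Epha3 had levels of 3.0 and 1.77 in fibroblasts and 0.377 and 0.201 in homogenate. Epha3 was 8.35-fold higher in fibroblasts (log2 3.06 ± 0.42, SE, limma adjusted p = 0.00622), and its second probe passed at a log2 difference of 1.80.

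Epha2 and Ephb1 were the Eph receptors that were lower in fibroblasts. Epha2, at 0.105 and 0.0918 in fibroblasts and 2.92 and 2.68 in homogenate, was 28.5-fold lower (log2 -4.83 ± 0.26, SE, n = 2 per group, limma adjusted p = 0.000321). Ephb1, a class B receptor, had levels of 0.0807 and 0.0833 in fibroblasts and 0.514 and 0.705 in homogenate, and was 7.34-fold lower (log2 -2.88 ± 0.27, SE, limma adjusted p = 0.00179). All fibroblast arrays lay below all homogenate arrays in both genes. Epithelial markers were lower in fibroblasts in 8 of 8 genes, with summed levels of 1.61 and 1.51 in fibroblasts and 175 and 179 in homogenate, and their part in these differences was not tested. Epha4 had levels of 0.435 and 0.359 in fibroblasts and 0.745 and 0.596 in homogenate and did not pass (log2 -0.75 ± 0.27, SE, limma adjusted p = 0.117).

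Of the netrin system, Unc5c and Ntn4 were higher in fibroblasts and Unc5b lower. Unc5c, at 1.27 and 1.18 in fibroblasts and 0.134 and 0.350 in homogenate, was 5.67-fold higher (log2 2.50 ± 0.52, SE, n = 2 per group, limma adjusted p = 0.0235). Ntn4, at 1.42 and 0.986 in fibroblasts and 0.506 and 0.446 in homogenate, was 2.49-fold higher (log2 1.32 ± 0.30, SE, limma adjusted p = 0.0331). Unc5b, at 0.247 and 0.294 in fibroblasts and 0.911 and 0.656 in homogenate, was 2.87-fold lower (log2 -1.52 ± 0.28, SE, limma adjusted p = 0.0167). None of these 3 pairs of groups overlapped. The other Unc5b probe gave a log2 difference of -0.29 and did not pass (limma adjusted p over probes = 0.840). The other Unc5c probe gave 2.47 and did not pass either (limma adjusted p over probes = 0.0802). Ntn1 had levels of 9.13 and 6.07 in fibroblasts and 3.66 and 3.32 in homogenate and did not pass (log2 1.09 ± 0.40, SE, limma adjusted p = 0.125).

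**Figure D3:**
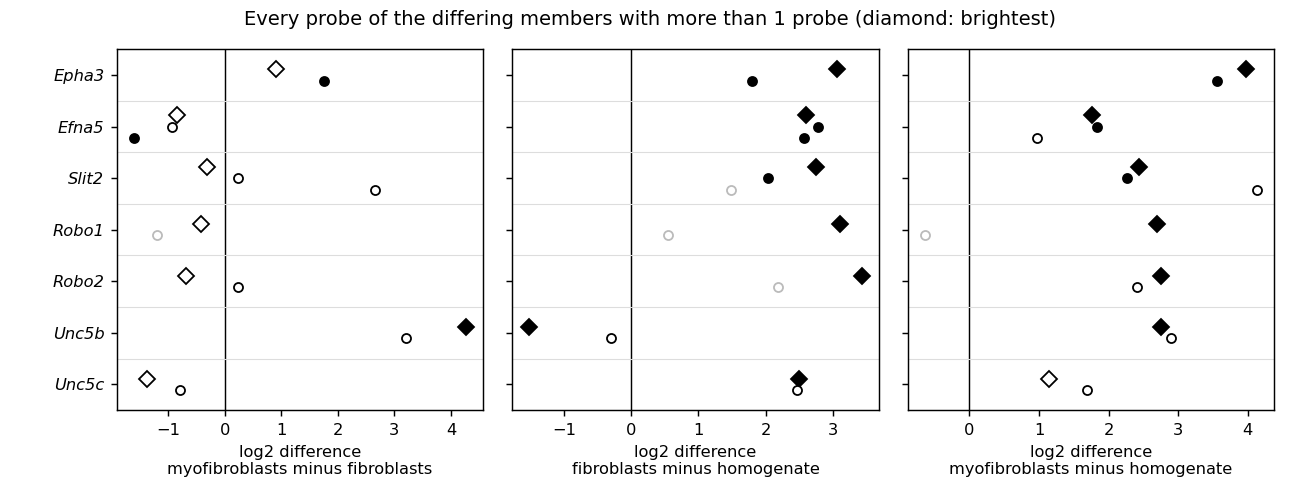
Log2 difference of every probe of the differing members that have more than 1 probe, in the 3 comparisons; diamonds are the brightest probe, filled symbols passed the test and grey symbols were not tested. Each panel has its own scale, and the circles of Epha3 and Efna5 in the left panel show a probe that passed at 1.76 and at -1.61 where the brightest did not.

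The calls of Epha2, Epha3, Ephb1, Efna5, Efnb2, Slit3 and Robo4 against homogenate held under every alternative in which each could be tested, and 7 of the 14 were lost in at least 1. Without homogenate replicate 1 and without homogenate replicate 2, limma's adjusted p was 0.141 and 0.105 for Efna1, 0.0727 and 0.0859 for Slit2, 0.0679 and 0.0755 for Robo1, 0.141 and 0.0691 for Unc5b, and 0.155 and 0.214 for Ntn4, and these fits called 8 and 9 members in place of 14. Unc5c was lost without fibroblast replicate 1 (0.0947), fibroblast replicate 2 (0.0585) or homogenate replicate 1 (0.0904), and Ntn4 also without myofibroblast replicate 1 (0.0588) or 2 (0.0586), or fibroblast replicate 1 (0.0652), or with only the 4 arrays compared (0.0573). Array weights ended the calls of Robo2 (0.0547), Unc5b (0.0534) and Unc5c (0.133), and the mean over probes ended that of Unc5b (log2 -0.91, 0.175). Leaving out fibroblast replicate 1 and replicate 2 moved the log2 difference to 2.10 and 3.40 for Slit2 and to 2.37 and 3.86 for Robo1. Without homogenate replicate 1 and replicate 2 it was 1.81 and 3.20 for Unc5c. Averaging the probes gave 2.43 for Epha3 and 2.10 for Slit2. Normexp correction gave -3.18 for Epha2, 2.24 for Epha3, -1.38 for Ephb1, 2.0 for Efna5, 2.49 for Robo1 and 1.72 for Unc5c. Each was smaller in size than above and still past the threshold. Normexp gave 1.14 for Robo2 and -4.59 for Robo4, which also passed. Both are smaller differences than the bounds given above. Bounds and fold sizes alike therefore depend on the background correction. Calls gained, beside those of Efnb1, were Ephb2 (log2 1.29, limma adjusted p = 0.0486) and Ephb4 (-1.24, 0.0484) with the mean over probes, and Epha7 without fibroblast replicate 2 (1.19, 0.0497).

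Myofibroblasts were last set against the same homogenates, so the homogenate arrays are shared by both comparisons with homogenate and the myofibroblast arrays with the first comparison. Epha3, Unc5b, Robo2, Robo1, Slit2, Efna5 and Slit3 were higher in myofibroblasts, and Robo4, Epha4, Efnb2, Efna1, Ephb1 and Epha2 lower. These were 13 of 32 tested members, 7 higher and 6 lower, against 26.9% of all 17165 genes tested (11.9% higher and 15.0% lower). The median log2 difference was 0.22 over the tested members and -0.01 over all genes. The arrays did not overlap in 27 of 32 members, against 77.5% of all genes.

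Among the members measured in both groups, Epha3 lay furthest above homogenate. Its levels of 4.59 and 4.09 in myofibroblasts, against 0.377 and 0.201 in homogenate, were 15.7-fold higher (log2 3.98 ± 0.42, SE, n = 2 per group, limma adjusted p = 0.00226), and the second probe passed at 3.56. Efna5, at 1.10 and 1.13 in myofibroblasts and 0.424 and 0.255 in homogenate, was 3.39-fold higher (log2 1.76 ± 0.33, SE, limma adjusted p = 0.0147). The arrays of the groups did not overlap in either gene. Another Efna5 probe passed at 1.84, while the remaining one gave 0.97 and did not (limma adjusted p over probes = 0.09).

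Epha4 was the Eph receptor furthest below homogenate. Levels of 0.0582 and 0.0675 in myofibroblasts, against 0.745 and 0.596 in homogenate, put it 10.6-fold lower (log2 -3.41 ± 0.27, SE, n = 2 per group, limma adjusted p = 0.000856). Epha2, which was higher in myofibroblasts than in fibroblasts, was still 3.64-fold lower than in homogenate (log2 -1.86 ± 0.26, SE, limma adjusted p = 0.00556). Ephb1, at 0.124 and 0.106 in myofibroblasts and 0.514 and 0.705 in homogenate, was 5.24-fold lower (log2 -2.39 ± 0.27, SE, limma adjusted p = 0.00286). The myofibroblast arrays lay below the homogenate arrays in all 3 receptors. A dim Epha7 probe, well above background in homogenate only, passed as lower in myofibroblasts (limma adjusted p over probes = 0.00346), whereas the brightest Epha7 probe gave 0.55 and did not pass (limma adjusted p over probes = 0.359).

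The ephrins Efnb2 and Efna1 were lower in myofibroblasts too. Efnb2, at 1.49 and 1.25 in myofibroblasts and 14.1 and 12.8 in homogenate, was 9.85-fold lower (log2 -3.30 ± 0.35, SE, n = 2 per group, limma adjusted p = 0.00215). Efna1, at 0.342 and 0.315 in myofibroblasts and 1.93 and 1.62 in homogenate, was 5.38-fold lower (log2 -2.43 ± 0.36, SE, limma adjusted p = 0.00700). Neither pair of groups overlapped. Efnb1, at 3.0 and 4.29 in myofibroblasts and 3.65 and 5.12 in homogenate, overlapped and did not pass (log2 -0.27 ± 0.61, SE, limma adjusted p = 0.768).

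Slits and their receptors again lay above homogenate, apart from Slit1 and Robo4. Slit2, at 2.89 and 2.18 in myofibroblasts and 0.485 and 0.438 in homogenate, was 5.44-fold higher (log2 2.44 ± 0.47, SE, n = 2 per group, limma adjusted p = 0.0164). Slit3, at 5.31 and 6.91 in myofibroblasts and 2.76 and 2.59 in homogenate, was 2.27-fold higher (log2 1.18 ± 0.26, SE, limma adjusted p = 0.0239). Robo1, at 2.10 and 1.60 in myofibroblasts and 0.293 and 0.274 in homogenate, was 6.48-fold higher (log2 2.70 ± 0.52, SE, limma adjusted p = 0.0161). In each of these the myofibroblast arrays lay above the homogenate arrays.

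Robo2, at 0.187 and 0.152 in myofibroblasts and not well above background in homogenate, was at least 4.33-fold higher (limma adjusted p = 0.0164, measured log2 means -2.57 in myofibroblasts and -5.32 in homogenate). The other Robo2 probe gave a log2 difference of 2.41 and did not pass (limma adjusted p over probes = 0.0652). Robo4 was at least 171-fold lower in myofibroblasts (limma adjusted p = 0.000142, measured log2 means -5.25 in myofibroblasts and 2.78 in homogenate). The endothelial markers were lower in myofibroblasts in 8 of 8 genes, with summed levels of 0.239 and 0.364 in myofibroblasts and 58.9 and 55.5 in homogenate, and Cdh5, Kdr, Tie1, Cldn5 and Emcn were not well above background on either myofibroblast array. Epithelial markers were lower in 8 of 8 genes, leukocyte markers in 5 of 7 and mesothelial markers in 4 of 5. In fibroblasts against homogenate the leukocyte and mesothelial counts were 6 of 7 and 3 of 5. The part of these cell types in the members' differences was not tested. Slit1 was above background on both homogenate arrays and on no myofibroblast array. It had levels of 0.0304 and 0.0392 in myofibroblasts and 0.0991 and 0.0642 in homogenate and did not pass (limma adjusted p = 0.0650).

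Of the netrin system, Unc5b passed against homogenate in myofibroblasts. At 4.93 and 5.5 in myofibroblasts and 0.911 and 0.656 in homogenate it was 6.73-fold higher (log2 2.75 ± 0.28, SE, n = 2 per group, limma adjusted p = 0.00199), and its second probe gave 2.90 (limma adjusted p over probes = 0.0519). Unc5a, at 0.223 and 0.309 in myofibroblasts and 0.142 and 0.137 in homogenate, gave a log2 difference of 0.91 ± 0.30 (SE, limma adjusted p = 0.0734) and passed in 6 of the 17 alternatives, at adjusted p between 0.0207 and 0.0429. Unc5c gave a log2 difference of 1.14 ± 0.52 (SE, limma adjusted p = 0.157), Ntn1 one of -0.70 ± 0.40 (limma adjusted p = 0.241) and Ntn4 one of -0.55 ± 0.30 (limma adjusted p = 0.227). The Unc5b arrays of the groups did not overlap, and those of Unc5c, Ntn1 and Ntn4 did not either. Unc5b thus passed as lower than homogenate in fibroblasts and higher than homogenate in myofibroblasts, both against the same 2 homogenate arrays.

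The calls of Epha3, Epha4, Ephb1, Efnb2, Robo4 and Unc5b against homogenate held under every alternative in which each could be tested, and 7 of the 13 were lost in at least 1. Without myofibroblast replicate 1 and without myofibroblast replicate 2, limma's adjusted p was 0.0652 and 0.0735 for Efna5, 0.0806 and 0.0606 for Slit2, 0.0521 and 0.115 for Slit3, 0.0792 and 0.0623 for Robo1, and 0.0789 and 0.0674 for Robo2, and each of these fits called 8 members. Without homogenate replicate 1 and without homogenate replicate 2, it was 0.0621 and 0.0544 for Epha2, 0.0858 and 0.103 for Slit2, 0.142 and 0.171 for Slit3, and 0.0854 and 0.0961 for Robo1, and these fits called 8 and 7 members. Efna1 was also lost without homogenate replicate 1 (0.0603), Efna5 (0.107) and Robo2 (0.0704) without homogenate replicate 2, and Slit3 on the authors' deposited table (log2 0.68, 0.0890). There, 16 members passed, 6 higher and 10 lower. Normexp correction gave 3.07 for Epha3, -1.49 for Epha4, -1.22 for Ephb1, -1.80 for Efna1 and 2.06 for Robo1. Each was smaller in size than above and still past the threshold. Robo2, at 0.86, and Robo4, at -4.58, passed under normexp too, with smaller differences than their bounds above. Calls gained, beside those of Unc5a, were Slit1 in 5 alternatives (limma adjusted p between 0.0196 and 0.0427), Ephb4 in 3 (between 0.0365 and 0.0382), Unc5c with the mean over probes (log2 1.41, 0.0250), and Epha1 (-1.14, 0.0458) and Ntn4 (-1.05, 0.0493) on the authors' deposited table.

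**Figure D4:**
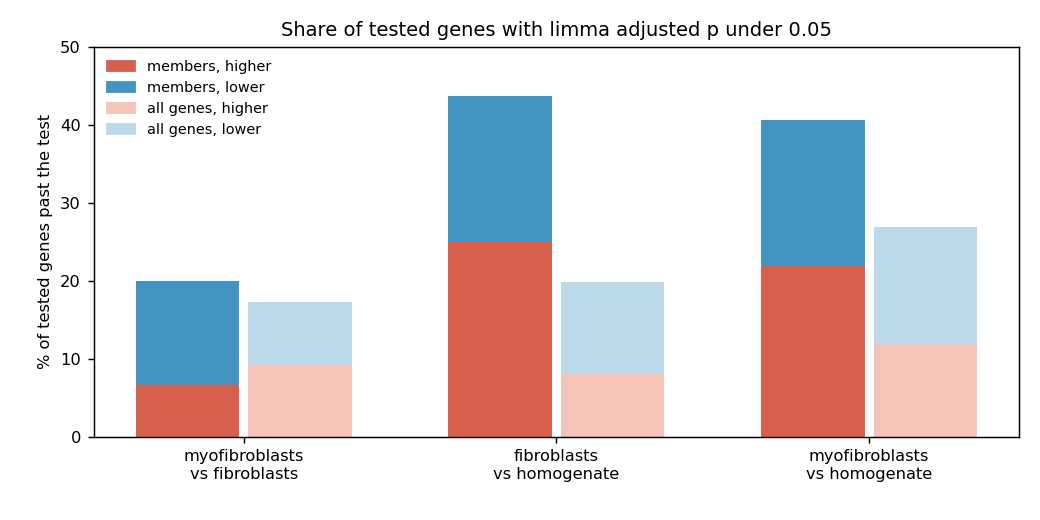
Percent of tested genes with a limma adjusted p under 0.05, split into higher and lower, for the members (strong colours) and for all genes tested (pale colours) in the 3 comparisons. Between the sorted groups the bars are close (6 of 30 members, 17.2% of all genes), and against homogenate the member bars are taller (14 and 13 of 32 members, 19.9% and 26.9% of all genes).

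In all, 16 of 32 members tested in at least 1 comparison passed in at least 1, against 36.5% of the 17403 genes so tested, and 16 were tested without passing in any. Among these last, 9 are not named above with their levels or only in passing: the class A receptors Epha1, Epha6, Epha7 and Epha10, the class B receptors Ephb2 and Ephb6, and the class A ephrins Efna2, Efna3 and Efna4. Epha10 and Ephb6 are receptors whose kinase domain is inactive. The log2 differences of these 9 lay between -0.67 and 0.79 over the 3 comparisons, with a lowest limma adjusted p of 0.119, and of these 9, Epha1, Epha7 and Ephb2 passed in the alternatives named above. Ephb2, a receptor of class B ephrins, had levels of 3.76 and 1.82 in myofibroblasts, 1.78 and 4.59 in fibroblasts and 1.98 and 2.13 in homogenate, and the arrays of all 3 groups overlapped. Epha7 averaged 1.13 in myofibroblasts, 1.27 in fibroblasts and 0.770 in homogenate (geometric means). Efnb3, a class B ephrin, was well above background on 1 fibroblast and 1 homogenate array and was not tested.

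A list of 39 partners of these families (co-receptors, adaptors and downstream enzymes) was read beside the members. Between the sorted groups 5 of 34 tested partners passed, 2 higher and 3 lower. The 4 largest were Anks1, an adaptor of Eph receptors, at log2 -2.24 ± 0.47 (SE, limma adjusted p = 0.0316), the actin-binding protein gene Ablim1 at -1.87 ± 0.32 (0.0187), the focal adhesion kinase gene Ptk2 at 1.81 ± 0.30 (0.0177) and the membrane-anchored netrin relative Ntng2 at 1.66 ± 0.39 (0.0420). Fyn, a Src-family kinase, was the other one that passed. In fibroblasts against homogenate 8 of 37 passed, 5 higher and 3 lower. Flrt2, which binds Unc5 receptors, stood at log2 2.94 ± 0.41 (SE, limma adjusted p = 0.00641) and the netrin receptor neogenin, Neo1, at 2.69 ± 0.46 (0.0125). Grip1, an adaptor of class B ephrins, was above background on 1 of 2 fibroblast arrays and stood at -3.12 ± 0.48 (0.00910). Ngef, an Eph-linked exchange factor that was not well above background in homogenate, was at least 6.74-fold higher in fibroblasts (limma adjusted p = 0.0115, mean levels 0.280 in fibroblasts and 0.0389 in homogenate).

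In myofibroblasts against homogenate 10 of 37 partners passed, 6 higher and 4 lower. Ngef was at least 14.0-fold higher in myofibroblasts (limma adjusted p = 0.00346, mean levels 0.582 in myofibroblasts and 0.0389 in homogenate). Grip1, not well above background in myofibroblasts, was at least 8.30-fold lower (limma adjusted p = 0.00395, mean levels 0.0235 in myofibroblasts and 0.335 in homogenate). Maged1, an adaptor of Unc5 receptors, stood at log2 3.1 ± 0.36 (SE, limma adjusted p = 0.00297). Dcc, the best-known attractive netrin receptor, had levels of 4.54 and 3.38 in myofibroblasts, 3.23 and 3.99 in fibroblasts and 3.53 and 3.43 in homogenate, and passed in none of the 3 comparisons. The shares of partners that passed (5 of 34, 8 of 37 and 10 of 37) were near those of all genes.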

How the data were processed

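Intensity values per spot, as deposited in the scanner files, were written by Agilent Feature Extraction 12.0.3.1, per the file headers and the submitters' processing notes. Per the file headers, local background and a spatial trend had been subtracted from the processed signal, and no scaling between arrays had been applied. The authors' deposited table of normalized intensity values equalled the processed signal times 1 constant per array (5.17 to 6.93) and served as an alternative. How it was made is not given in the sources used.

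Log2 processed signal minus log2 of the array's 75th percentile was used. Control spots and outliers were dropped, and repeated spots of a probe were averaged. Of 56605 probes, 32994 matched 1 gene through RefSeq transcripts, without versions, and the brightest probe stood for a gene. Testing required a signal well above background on both arrays of either group compared. All 6 arrays were fitted as 3 groups in limma 3.58.1 (R 4.3.3), two-sided, with 3 residual degrees of freedom (5.57 with the prior). Benjamini-Hochberg adjustment ran over all genes tested, with a call at an adjusted p under 0.05. Other probes of the members were judged in a fit over all named probes. The fit was tested on simulated data in which each gene had the same spread in all 3 groups. The groups here differed in spread, which that simulation does not cover.

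All 37 members were accounted for. Members that passed in at least 1 comparison were named with all 6 values. Among the partners, the 4 largest differences per comparison that passed were named, except 1 that is not reported here. Dcc, Fyn and the named markers were chosen after their values were seen. The members, the partner list and the marker lists (endothelium, epithelium, leukocyte, mesothelium, smooth muscle and pericyte, nerve and glia, fibroblast, myofibroblast and sort markers) were chosen with earlier results of these data known. Promoters came from RefSeq (GRCm38.p6). The number of arrays limits the precision.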

Additional observations from a re-analysis of the deposited data

How the results depend on the processing

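Of the members' log2 differences under the 17 alternatives, 1504 kept their side of the threshold, 56 lost a call, 30 gained one and 0 turned a call to the other sign. The number of members called between myofibroblasts and fibroblasts lay between 4 and 8 in the 11 alternatives other than leaving out 1 array, and between 4 and 9 when 1 array was left out. For fibroblasts against homogenate it lay between 11 and 15, and between 8 and 15 with 1 array left out. For myofibroblasts against homogenate it lay between 11 and 16, and between 7 and 15 with 1 array left out. With 1 array left out, the lone array of its group is assumed to vary like the other groups. Deviations of same-numbered arrays correlated at 0.07 (myofibroblasts and fibroblasts), 0.04 (fibroblasts and homogenate) and -0.01 (myofibroblasts and homogenate) over 13998 genes. These values show little shift shared by same-numbered arrays. They cannot tell whether the samples were paired by design, since a pairing need not leave such a shift. With the replicate block 6, 15 and 13 members were called. Over all genes the count between the sorted groups, 2758, became 1062 with only the 4 arrays compared, 1335 with array weights and between 1030 and 5738 with 1 array left out. For fibroblasts against homogenate, 3392 became 2027 with all 4 arrays required above background and between 1545 and 6159 with 1 array left out. For myofibroblasts against homogenate, 4619 became 7287 with only the 4 arrays compared, 7650 with array weights and between 1837 and 7214 with 1 array left out. The share of calls that were higher was 53.5% between the sorted groups, 64.7% under median scaling and 25.4% on the authors' deposited table. It was 40.7% for fibroblasts against homogenate, 50.9% under median scaling and 56.2% with all 4 arrays required above background. For myofibroblasts against homogenate it was 44.3%, 65.1% under median scaling, 20.6% on the authors' deposited table, 54.3% under normexp and 56.3% with all 4 arrays required above background. The median log2 difference of all genes was -0.06, 0.03 and -0.01 as reported, 0.08, 0.30 and 0.40 under median scaling and -0.47, -0.06 and -0.51 on the authors' deposited table, in the order of the comparisons above. Normexp started from each spot's median brightness. The cause of the lost calls was not tested. Dim members limit precision: Robo2 and Robo4 have only bounds against homogenate, and 7, 5 and 5 members could not be tested in the 3 comparisons. Slit1 was likewise at background in myofibroblasts in its test against homogenate.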

Other observations

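Some members differed more between arrays of 1 group than between groups. Ntn3, a less studied netrin, had levels of 0.311 and 1.43 in myofibroblasts, 0.227 and 1.25 in fibroblasts and 0.172 and 0.152 in homogenate, so its arrays were 4.61-fold apart in myofibroblasts and 5.51-fold apart in fibroblasts. Its second probe was steadier, at 0.268 and 0.361 in myofibroblasts, 0.107 and 0.218 in fibroblasts and 0.0522 and 0.0509 in homogenate. That probe passed in myofibroblasts against homogenate (log2 2.60, limma adjusted p over probes = 0.00943), where the brightest did not (log2 2.05, limma adjusted p over probes = 0.197). Epha5, a class A receptor best known from brain, had levels of 0.413 and 0.0678 in myofibroblasts, 0.148 and 0.0502 in fibroblasts and 0.0960 and 0.0616 in homogenate, with 6.09-fold between the myofibroblast arrays. Of the members well above background on both arrays of a group, 3 of 30 were more than 2-fold apart in myofibroblasts, 5 of 29 in fibroblasts and 1 of 31 in homogenate. The 5 in fibroblasts were Ephb2, Efnb1, Slit2, Robo1 and Ntn3.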
